A study of Mus musculus with 23 samples.

Results

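The 56 genes described here form the machinery by which a cell folds, checks, modifies and exports secreted proteins, together with 4 genes of the unfolded protein response. They were chosen by name from a list of genes of the endoplasmic reticulum (ER) and its transport to the Golgi, with no measured value in the rule. Earlier results of these data were known when the choice was made. All 56 were found both in the naive table (11548 genes) and in the table of cultured cells (10574 genes), and they fell into 10 steps of the pathway. RNA with a polyA tail had been sequenced from sorted mouse spleen B cells in 23 libraries, and the question of the study was how loss of the transcription factor IRF8 alters B cell differentiation. Naive B cells (sorted as B220+ and negative for CD11b, F4/80 and Thy1.2) gave 12 libraries in 2 arms, and each arm, set up for its own guide RNA, held 3 WT and 3 KO libraries. The WT cells of both arms were Thy1.1- and carried no guide, and the KO cells were Thy1.1+ and carried sgRNA 1 or sgRNA 2 against Irf8. Naive B cells cultured for 72 hours with LPS, labelled as 20 mg/ml, and the cytokines IL-2 at 20 ng/ml and IL-5 at 5 ng/ml gave 11 libraries. Of these, activated B cells (GL7+ CD138-) had 3 WT and 3 KO libraries, and plasmablasts (CD138+, called plasma cells in the cell type label) had 2 WT and 3 KO libraries. All cultured KO cells carried sgRNA 1. The third WT plasmablast library that the study's design implies was not analysed here. No group carried a control guide, so loss of Irf8, the presence of a guide and the Thy1.1 gate cannot be told apart, and the age and strain of the mice are not given in the sources used here. As the labels do not say whether libraries of a group came from separate mice or cultures, p-values measure only the spread between these samples.

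A secreted protein enters the ER through the Sec61 channel, loses its signal peptide, receives sugar chains from the oligosaccharyltransferase complex and is folded by chaperones and by enzymes that form disulfide bonds or turn proline bonds. Proteins that fail to fold are pulled back and degraded, and folded ones leave in COPII-coated vesicles. The unfolded protein response adjusts this capacity through the sensors IRE1 (gene Ern1), ATF6 and PERK (gene Eif2ak3). IRE1 splices the RNA of Xbp1, a factor that plasma cells need in order to secrete antibody at high rates.

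Expression was given as RPKM, reads scaled to gene length and library size. RPKM does not correct for differences in RNA composition between libraries, so a size factor per library was run as an alternative. The reads assigned to genes, estimated from the steps between low values, came to 14500000 to 22200000 in naive libraries and 4320000 to 26900000 in the 8 cultured libraries compared. Plasmablast KO m3 had 51300 such reads, listed 1984 genes at 0, and had 55 of the 56 members below every other plasmablast library. The activated libraries numbered m3 went against their labels: Thy1 stood at 25.7 RPKM in the one labelled WT and 0.093 in the one labelled KO, against 0.013 and 0.055 in WT m1 and m2 and 21.9 and 27.8 in KO m1 and m2. Irf8 stood at 92.4 RPKM in the library labelled KO m3, against 68.1 and 69.2 in the other KO libraries, and was lower in the library labelled WT m3 than in any of the other 5. Whether the 2 activated libraries had been exchanged was not tested, and no library was moved to another group. These 3 libraries were left out of the comparisons, which leaves 2 libraries in each cultured group. Among naive libraries, KO guide 1 A listed 1405 genes at 0 (66 to 291 in the others), and WT arm 1 A had Thy1 at 4.93 RPKM. Sdc1, the gene for CD138, and Pax5, a mature B cell factor, separated the sorted states. Sdc1 stood at 27.5 to 34.1 RPKM in the plasmablasts compared and 0.287 to 0.510 in the activated cells, and Pax5 at 0.400 to 1.03 against 4.71 to 7.90. Prdm1, a plasma cell factor, did not: its values overlapped, at 56.7 to 73.9 RPKM in activated cells and 69.6 to 79.8 RPKM in plasmablasts. Neutrophil and platelet marker lists had no gene in either table, and the T cell list lacked Cd3d, Cd3e, Cd3g, Cd4 and Cd8a in both. Other lists were measured in part, given as summed RPKM in naive WT and then KO libraries. Macrophage genes (7 of 10) gave 6.61 to 11.9 and 6.37 to 13.9. Dendritic cell genes (5 of 7) gave 34.05 to 47.7 and 24.7 to 40.45. T cell genes (2 of 9) gave 15.4 to 21.7 and 15.7 to 41.0. Stromal and endothelial genes (4 of 6) gave 40.1 to 55.1 and 41.5 to 61.1. Natural killer (5 of 7) and erythroid (2 of 7) genes gave at most 14.5 and 21.7. The share of other cells was not tested.

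The promoters of the members were searched for letters that ATF6, XBP1 and related factors are known to recognise. RefSeq promoters on GRCm38.p6, from 250 bases before to 50 bases after the gene start, were at hand for 43 of the 56 members. The ER stress response element (ERSE, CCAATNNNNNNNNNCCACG, either strand) was present in 9 of the 43 (20.9%): Hspa5, Hsp90b1, Dnajc3, Creld2, Calr, Canx, Pdia6, Syvn1 and Derl3. Among all 27025 genes with a promoter, 37 (0.137%) held it. The shorter ERSE-II (ATTGGNCCACG) was found for Herpud1 and Dnajb11, against 12 of all genes (0.0444%), and TGACGTGG, whose other strand holds the CCACG of ERSE, for Txndc5 and Sec24d, against 193 genes (0.714%). No member held more than 1 of these 3 kinds. The windows of 6 genes described here are given 5′ to 3′ on the strand of the gene, with the matched letters in capitals, to show the spacing of both parts and that either strand can carry them.
Hspa5 (chr2:34772020-34772048, ERSE): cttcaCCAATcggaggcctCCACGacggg
Hsp90b1 (chr10:86705633-86705661, ERSE): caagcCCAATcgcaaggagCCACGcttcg
Creld2 (chr15:88819515-88819543, ERSE on the other strand): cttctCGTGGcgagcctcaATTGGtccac
Canx (chr11:50325795-50325823, ERSE): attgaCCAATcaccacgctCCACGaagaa
Herpud1 (chr8:94386372-94386392, ERSE-II): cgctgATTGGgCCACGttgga
Txndc5 (chr13:38528040-38528057, TGACGTGG): gccgcTGACGTGGcgcta
In Hspa5 the match ended 46 bases before the gene start, and Hsp90b1 held a second match 88 bases before it. A match is a description of the letters and does not show that a factor was bound.

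Most members were lowest in naive cells, higher in activated cells and highest in plasmablasts. Every activated library compared stood above every naive library in 53 of 56 members (21.3% of the 9580 genes in both tables that were tested), and every plasmablast library stood above every activated one in 54 (16.6% of 9861 genes tested). The median member stood 3.16-fold higher in activated than in naive WT cells and 2.22-fold higher in plasmablast than in activated WT cells, as ratios of mean RPKM. Naive and cultured tables were normalized separately, so the naive levels are set beside the cultured ones without a test. The sum over all members ran from 2453 to 3164 RPKM in naive, 6657 to 9306 in activated and 14710 to 19750 in plasmablast libraries.

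**Figure D1:**
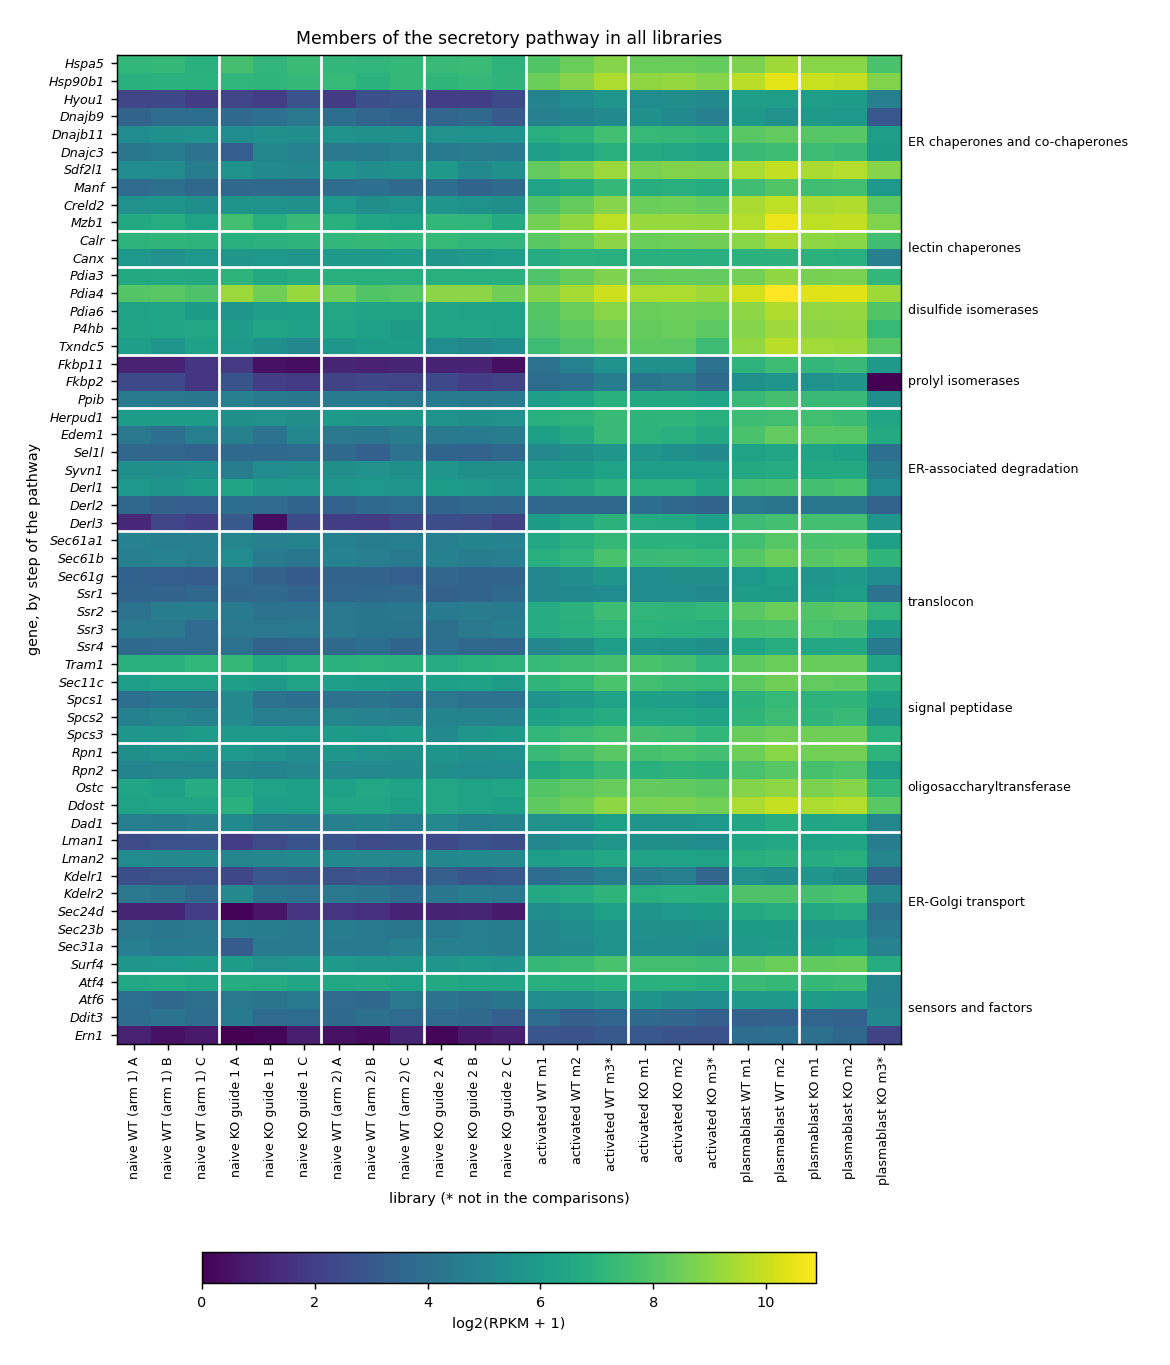
Expression of the 56 members (rows, by step) in all 23 libraries (columns, by group) as log2(RPKM + 1) in colour. Most rows are lowest in naive cells and highest in plasmablasts. Plasmablast KO m3, with 51300 reads, was left out of the comparisons.

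The largest ratios from naive to activated WT cells were those of Sec24d, Derl3 and Fkbp11, all at or under 3.01 RPKM in naive WT cells. Sec24d, a cargo-binding subunit of the COPII coat, went from 1.69 RPKM in naive WT cells to 42.5 in activated WT cells and 105 in plasmablasts, 25.1-fold and then 2.47-fold higher. Derl3, a channel subunit of ER-associated degradation, went from 3.01 to 71.3 and 188 RPKM. Ern1 remained the least abundant member in activated WT cells, with means of 0.648, 6.03 and 14.3 RPKM. At the other end, Derl2 stood at 10.7 RPKM in naive, 11.5 in activated and 18.3 in plasmablast WT cells, and Atf4 at 89.9, 113 and 158 RPKM. Ddit3, the gene for the stress factor CHOP, had its highest mean in naive cells, with means of 14.1, 11.2 and 9.47 RPKM.

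**Figure D2:**
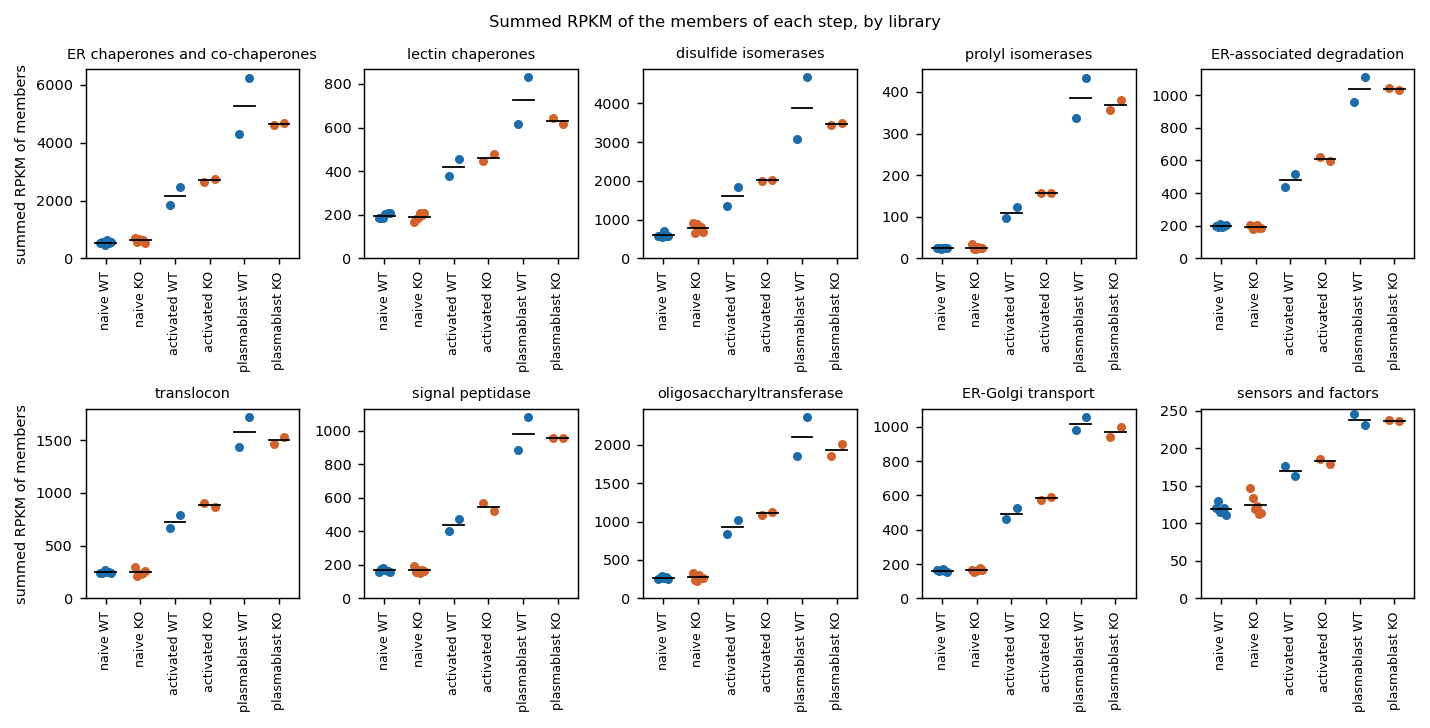
Summed RPKM of the members of each of the 10 steps in each library (points; WT blue, KO orange), with group means as lines, without the 3 libraries left out. In every step the plasmablasts lie above the activated cells; the prolyl isomerases have the largest ratio between them in WT (3.50) and the sensors and factors the smallest (1.40).

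Plasmablasts were compared with activated B cells from the same kind of culture, first over the mean of the WT and KO differences. Of the 56 members, 54 were higher in plasmablasts and none was lower, with a median log2 difference of 0.96 on the log2(RPKM + 1) scale. Over the 9861 genes tested, 19.1% were called higher and 36.7% lower, with a median of -0.13. A gene was called at a limma adjusted p under 0.05. In bulk RNA a change in the share of cells of a type and a change of RNA per cell cannot be told apart. Scaling each library by a size factor moved the median over all genes from -0.13 to -0.01 and that of the members to 1.12, with 55 called higher.

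All 10 ER chaperones and co-chaperones rose. Hspa5, the gene for BiP, the main Hsp70 chaperone of the ER, stood at 245 and 334 RPKM in activated WT, 331 and 348 in activated KO, 426 and 648 in plasmablast WT, and 488 and 500 in plasmablast KO libraries. The activated and plasmablast values of Hspa5 did not overlap, and its difference was 0.71 (SE 0.14, limma adjusted p = 6.588e-04). Creld2, a cysteine-rich ER protein induced by ER stress, rose the most of this step, by 1.34 (SE 0.12, limma adjusted p = 1.342e-06), from 230 to 356 RPKM in activated libraries to 717 to 922 in plasmablasts. Hsp90b1 (GRP94), the ER form of Hsp90, rose by 1.11 (SE 0.15, limma adjusted p = 4.394e-05). Mzb1, a co-chaperone for immunoglobulin in B cells, had the highest level of the step, at 395 to 595 RPKM in activated and 812 to 1495 RPKM in plasmablast libraries. Its difference was 0.96 (SE 0.17, limma adjusted p = 3.334e-04), with plasmablast WT m2 far above the other 3 plasmablast libraries (1495 against 812 to 935 RPKM).

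The lectin chaperones hold sugar-bearing proteins until they are folded. Calreticulin (Calr), the soluble form, rose by 0.76 (SE 0.12, limma adjusted p = 1.599e-04). Its membrane-bound partner calnexin (Canx) stood at 104 and 122 RPKM in activated WT, 114 and 121 in activated KO, 127 and 126 in plasmablast WT, and 128 and 115 in plasmablast KO libraries. These Canx values overlapped, and the difference of 0.11 (SE 0.08) was not called (limma adjusted p = 0.264). With size factors Canx was called at 0.26 (limma adjusted p = 0.0481). Both genes carry the ERSE letters shown above for Canx. Over the members with a promoter, the median log2 difference was 0.90 for the 9 with ERSE and 0.94 for the 34 without.

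All 5 disulfide isomerases rose, by 0.58 to 1.45. Txndc5 had the largest difference, with 178 and 237 RPKM in activated WT, 293 and 281 in activated KO, 550 and 867 in plasmablast WT, and 661 and 616 in plasmablast KO libraries (1.45, SE 0.14, limma adjusted p = 2.025e-06). Pdia4 was the most abundant member of all in both states, at 468 to 750 RPKM in activated and 1142 to 1889 RPKM in plasmablast libraries, and rose by 1.11 (SE 0.16, limma adjusted p = 8.408e-05).

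The prolyl isomerases had the highest median difference of the 10 steps, 1.49. Fkbp11 (chr15:98724368-98728198 on GRCm38.p6), an ER-membrane prolyl isomerase abundant in secretory cells, stood at 16.2 and 27.4 RPKM in activated WT, 42.6 and 42.9 in activated KO, 132 and 179 in plasmablast WT, and 147 and 165 in plasmablast KO libraries. Its difference of 2.33 (SE 0.14, limma adjusted p = 2.895e-08) was the largest of all members. Fkbp2 rose by 1.49 (SE 0.08, limma adjusted p = 1.701e-08) and Ppib, the gene for cyclophilin B, by 1.04 (SE 0.09, limma adjusted p = 1.064e-06). Ppib was the most abundant of the 3 at 67.1 to 97.5 RPKM in activated and 161 to 203 RPKM in plasmablast libraries.

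All 7 members of ER-associated degradation rose. Edem1, a mannosidase-like protein that marks misfolded glycoproteins, went from 72.3 and 94.5 RPKM in activated WT and 131 and 117 in activated KO to 218 and 312 in plasmablast WT and 265 and 258 in plasmablast KO libraries (1.36, SE 0.12, limma adjusted p = 7.809e-07). Derl3 rose by 1.18 (SE 0.10, limma adjusted p = 4.437e-07). Herpud1, which organises the ubiquitin ligase complex around Syvn1 and carries the ERSE-II letters, rose the least of the step, by 0.49 (SE 0.08, limma adjusted p = 1.922e-04).

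The steps at the membrane moved over a narrow range. The 8 translocon members rose by 0.64 to 1.15, led by Ssr2 (1.15, SE 0.10, limma adjusted p = 6.466e-07) and Ssr4 (1.13, SE 0.10, limma adjusted p = 8.208e-07), both subunits of the translocon-associated protein complex. Ssr2 stood at 102 and 125 RPKM in activated WT, 141 and 137 in activated KO, 272 and 337 in plasmablast WT, and 242 and 271 in plasmablast KO libraries. Tram1, the most abundant of the step at 157 to 217 RPKM in activated cells, rose by 0.78 (SE 0.09, limma adjusted p = 8.482e-06). The 4 signal peptidase members rose by 0.85 to 1.18, with Spcs1 at the top (SE 0.09, limma adjusted p = 1.917e-07) and Spcs3 at 1.03. Of the oligosaccharyltransferase, all 5 members rose by 0.75 to 1.14. Ddost, the most abundant of them, went from 291 to 422 RPKM in activated to 739 to 962 RPKM in plasmablast libraries (1.14, SE 0.12, limma adjusted p = 3.298e-06), and Rpn1 rose by 1.03 (SE 0.11, limma adjusted p = 7.344e-06).

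All 8 members of ER-Golgi transport rose. Kdelr1, a receptor that returns escaped ER proteins from the Golgi, went from 13.2 and 16.9 RPKM in activated WT and 21.8 and 24.1 in activated KO to 45.0 and 39.8 in plasmablast WT and 49.7 and 41.2 in plasmablast KO libraries (1.20, SE 0.10, limma adjusted p = 3.814e-07). Sec24d rose by 1.10 (SE 0.08, limma adjusted p = 2.014e-07), while Sec23b, its partner in the inner COPII coat, rose by 0.49 (SE 0.07, limma adjusted p = 9.746e-05). Surf4, a cargo receptor and the most abundant member of the step, rose by 0.83 (SE 0.09, limma adjusted p = 3.906e-06).

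Of the 4 sensors and transcription factors, 3 rose and the median difference was 0.44. Ern1 stood at 6.21 and 5.85 RPKM in activated WT, 6.76 and 5.85 in activated KO, 13.9 and 14.7 in plasmablast WT, and 15.1 and 11.9 in plasmablast KO libraries, a rise of 1.05 (SE 0.10, limma adjusted p = 1.897e-06). Atf6 rose by 0.46 (SE 0.08, limma adjusted p = 2.556e-04) and Atf4, the factor downstream of PERK and other kinases, by 0.42 (SE 0.08, limma adjusted p = 4.364e-04). Ddit3 stood at 8.81 to 13.7 RPKM in activated and 9.13 to 10.6 RPKM in plasmablast libraries, which overlapped, and was not called (-0.19, SE 0.12, limma adjusted p = 0.189).

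**Figure D3:**
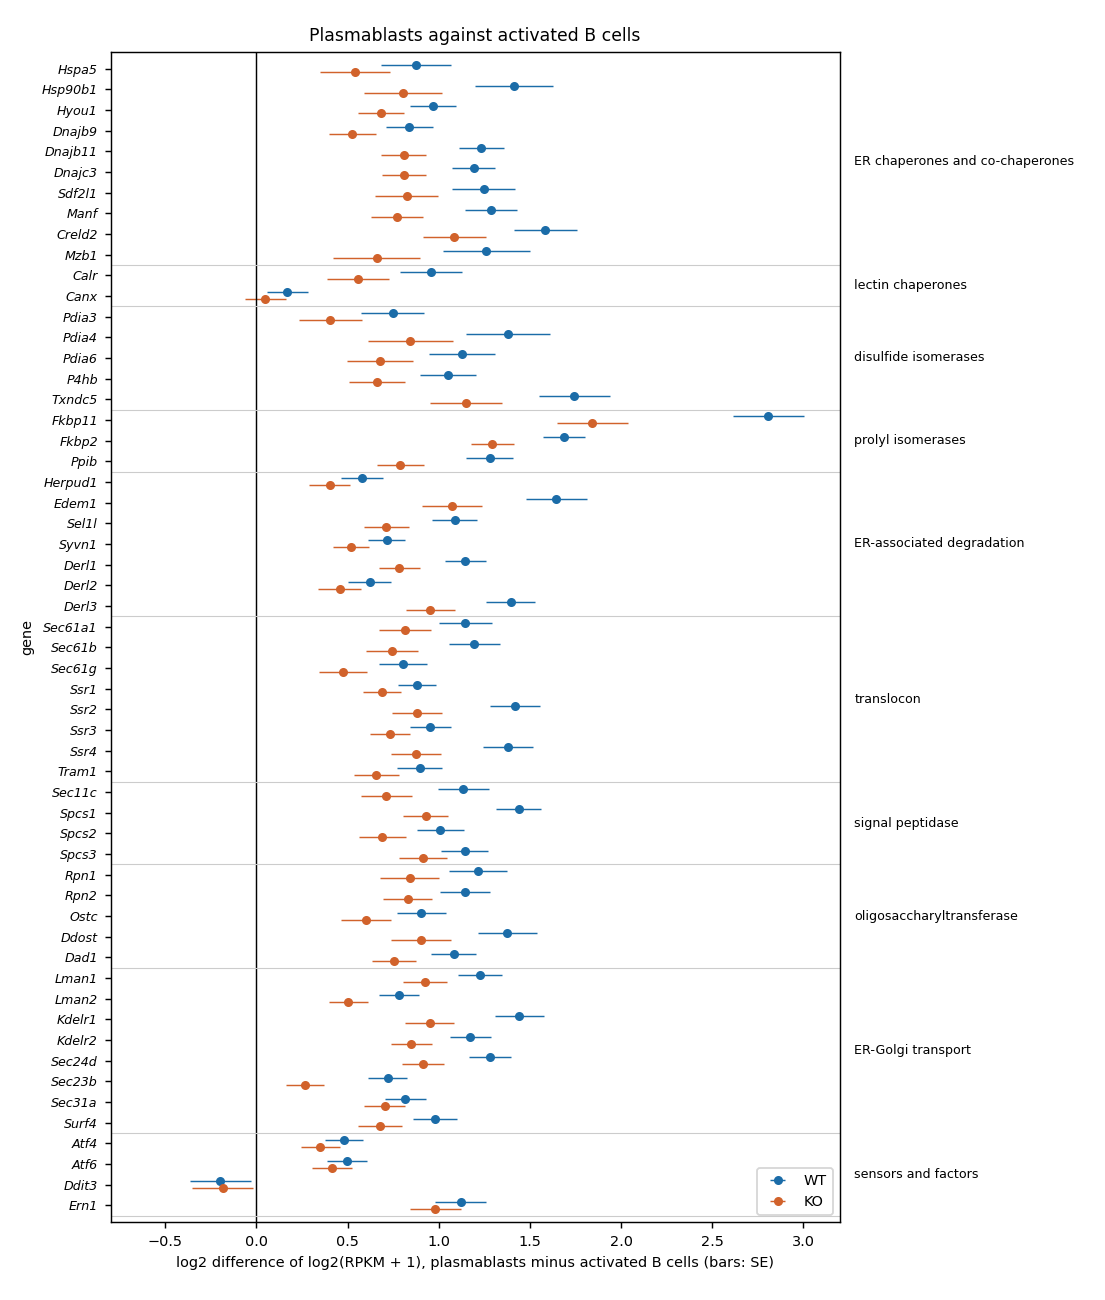
Log2 difference of log2(RPKM + 1) between plasmablasts and activated B cells for each member, in WT (blue) and KO (orange), with bars for the SE. Fkbp11 lies farthest to the right in both genotypes, Ddit3 lies left of 0 in both, and the KO point lies left of the WT point in 55 of 56 members.

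Of 123 further genes of these pathways, 107 were tested. In plasmablasts 86 were called higher (19.1% of all genes) and 6 lower (36.7% of all genes), with a median of 0.67. Xbp1 stood at 260 and 324 RPKM in activated WT, 446 and 394 in activated KO, 609 and 970 in plasmablast WT, and 765 and 764 in plasmablast KO libraries, and rose by 1.13 (SE 0.14, limma adjusted p = 1.841e-05). Eif2ak3, which encodes PERK, had a difference of -0.01 (SE 0.08, limma adjusted p = 0.922). The highest were Ergic1 (1.76) and Kdelr3 (1.75), both of ER-Golgi transport, and Man1b1 (1.43), an ER mannosidase. The lowest were Atf3 (-2.07) and Trib3 (-1.31), both targets of the ATF4 and CHOP branch, and Cnpy3 (-1.89), a chaperone of Toll-like receptors. Atf3, an example of a stress factor that fell, stood at 3.35 to 5.63 RPKM in activated and 0.014 to 0.693 RPKM in plasmablast libraries.

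Within each genotype the rise was found separately. In WT cells 54 members were higher (15.5% of all genes), with a median of 1.14. In KO cells 52 were higher (12.1% of all genes), with a median of 0.75, and Canx, Ddit3, Pdia3 (0.41, limma adjusted p = 0.0904) and Sec23b (0.27, limma adjusted p = 0.0667) were not called. With the activated m3 libraries included as labelled, 52 members were called in WT and 48 in KO cells. With plasmablast KO m3 included too, limma called 0 in each genotype (16 in WT and 3 in KO cells at an unadjusted p under 0.05) and 4 over the mean.

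The difference between genotypes in this step was then tested directly. It was below 0 in 55 of 56 members, with a median of -0.37 against 0.04 over all genes, but no member was called (17 members at an unadjusted p under 0.05). The share of all genes below 0 is not given here. Summed over members, activated libraries stood at 6657 and 8372 RPKM in WT and 9197 and 9306 in KO. Plasmablast libraries stood at 14710 and 19750 RPKM in WT and 15540 and 15950 in KO. The same libraries enter every member, so the count does not rest on 55 separate results. Over all genes 0.0203% were called higher and 0.0101% lower. Fkbp11 had the smallest p, with -0.97 (SE 0.28, limma adjusted p = 0.382). Without activated WT m2 it was called at -1.33 (limma adjusted p = 0.0419). With the activated m3 libraries included as labelled, against their Thy1 and Irf8 levels, the median over members was -0.12.

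In activated B cells, KO libraries held more of most members than WT libraries, but the test called 1 of 56. Fkbp11, with 42.6 and 42.9 RPKM in KO and 16.2 and 27.4 in WT libraries, was higher by 0.99 (SE 0.19, limma adjusted p = 0.0413), with 0.619% of all genes called higher and 0.0913% lower. All 56 differences were above 0, with a median of 0.29 against -0.01 over all genes. Both KO libraries stood above both WT libraries in 48 members (23.9% of all genes). After Fkbp11, the smallest p were those of Kdelr1 (0.59, limma adjusted p = 0.0722) and Derl3 (0.51, limma adjusted p = 0.107), and the 4 sensors and factors differed by 0.05 to 0.14. These comparisons use the same activated libraries as the rise to plasmablasts, so a high value in activated KO cells enters both.

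The Fkbp11 call did not hold without WT m1 (0.62, limma adjusted p = 0.422), KO m1 (adjusted p = 0.324), KO m2 (adjusted p = 0.0964), or the plasmablast libraries KO m1 (adjusted p = 0.0571) or KO m2 (adjusted p = 0.0577), which share the estimate of the spread. It was also lost with log2(RPKM + 0.1) (limma adjusted p = 0.0502), with no trend in the spread (adjusted p = 0.111) and with size factors (adjusted p = 0.0944). Without WT m2, 2 members were called. With the activated m3 libraries as labelled, the Fkbp11 difference was 0.17 and limma called 0 members (0 at an unadjusted p under 0.05). These labels go against Thy1 and Irf8, so this fit may mix the genotypes, and neither the call nor its loss can be judged from it. Fkbp11 stood at 46.4 RPKM in the library labelled WT m3, where Thy1 was high, and at 16.2 in that labelled KO m3, where Thy1 was low, a ratio of 2.87. Between libraries of the same number, which the labels do not call pairs, the ratio of KO to WT was 2.63 for m1 and 1.57 for m2. The m3 values are given as levels only and are no support for the call, as an exchange of these libraries was not tested. The WT libraries themselves differed, with m2 above m1 in 52 of 56 members (39.4% of all genes). The library labelled WT m3 had the highest levels: it stood above WT m1 and m2 in 53 members (26.4% of all genes) and above the library labelled KO m3 in 56 (43.7% of all genes). The library labelled KO m3 was below both other KO libraries in 45 members (50.1% of all genes).

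**Figure D4:**
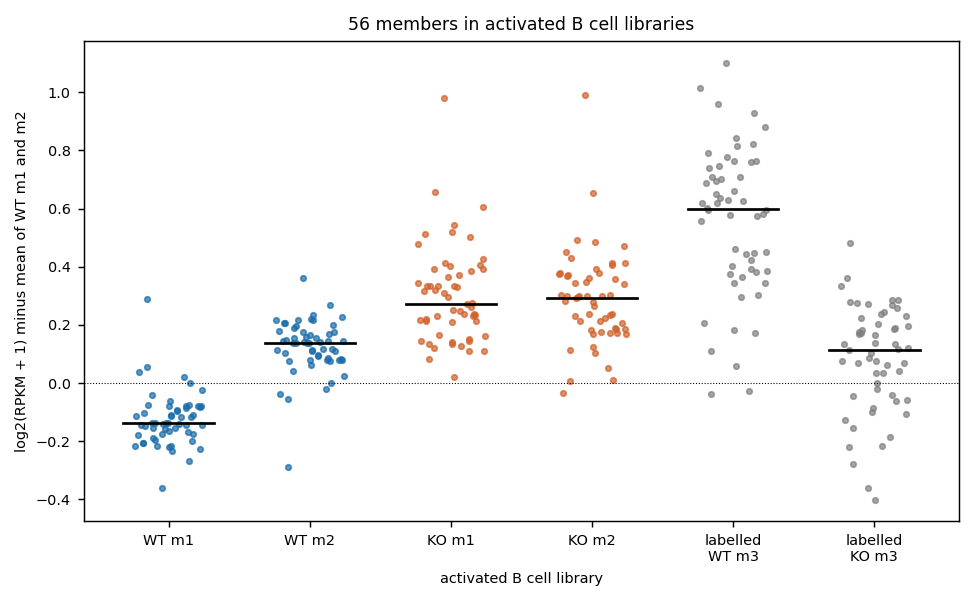
Each member's log2(RPKM + 1) in each activated B cell library minus its mean in WT m1 and m2 (points; black lines are medians over the 56 members; grey, the 2 libraries left out). Medians are -0.14 and 0.14 in WT m1 and m2, 0.27 and 0.29 in KO m1 and m2, 0.60 in the library labelled WT m3 and 0.12 in that labelled KO m3.

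Sums of several marker lists also differed between activated KO and WT libraries. The 8 measured of 9 plasma cell markers summed to 1292 to 1439 RPKM in activated KO and 744 to 1057 RPKM in activated WT libraries. In plasmablasts they summed to 2151 to 3787 RPKM. The list holds Xbp1, itself a pathway gene described above, so this sum is not separate from the pathway difference. Of that list, Tnfrsf17, the receptor BCMA, was called higher in activated KO cells by 1.12 (limma adjusted p = 0.0235), at 1.56 and 1.79 RPKM against 0.249 and 0.220. It is named for this call, a choice made after the values were seen, and its WT values lie under the 1 RPKM filter. Sdc1 stood at 0.448 and 0.510 RPKM in KO and 0.473 and 0.287 in WT libraries, and was not called. The 6 activated or germinal centre B cell markers summed to 67.8 to 87.8 RPKM in KO and 94.7 to 111 RPKM in WT libraries, and the 6 marginal zone markers to 74.0 to 87.1 RPKM in KO and 56.8 to 65.0 RPKM in WT libraries. The 3 measured of 10 macrophage markers summed to 6.55 to 8.19 RPKM in KO and 9.54 to 9.92 RPKM in WT libraries, and the 2 measured of 7 dendritic cell markers to 99.5 to 111 RPKM in KO and 94.5 to 98.3 RPKM in WT libraries. The 1 measured of 9 T cell markers stood at 4.74 to 5.04 RPKM in KO and 3.53 to 3.61 RPKM in WT libraries. Sums of the 10 mature B cell markers overlapped, at 1916 to 1924 RPKM in KO and 1819 to 1990 RPKM in WT libraries. Lists with so few measured genes as those of macrophages, dendritic cells and T cells cannot stand for a cell state. The part of cell states in the difference of the members was not tested. Of the further pathway genes, Kdelr3 was called higher, by 0.98 (SE 0.19, limma adjusted p = 0.0413), and Xbp1 was not (0.53, limma adjusted p = 0.281).

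Between KO and WT plasmablasts no member was called (1 at an unadjusted p under 0.05), with 0.0608% of all genes called higher and 0.0101% lower. Irf8 RNA itself overlapped here, at 17.5 and 21.4 RPKM in KO and 24.6 and 17.6 in WT libraries. The median difference was -0.08, over a range from -0.24 to 0.16. Sec23b had the smallest p, at 51.1 and 50.1 RPKM in KO and 60.7 and 59.5 in WT libraries (-0.24, SE 0.11, limma adjusted p = 0.818). Fkbp11, which differed in activated cells, stood at 147 and 165 RPKM in KO and 132 and 179 in WT plasmablasts, a difference of 0.02. KO libraries lay above both WT libraries in 1 member (19.2% of all genes) and below both in 4 (8.43% of all genes). Plasmablast WT m2, the least deep of the libraries compared at 4320000 reads, stood above WT m1 in 47 members (25.9% of all genes), and without WT m1 16 members were at an unadjusted p under 0.05 and 0 were called.

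In naive cells the machinery was low and 3 members differed between KO and WT over both guides. Pdia4 was higher, and Herpud1 and Txndc5 were lower, while 1.03% of all genes were called higher and 0.858% lower. The median over members was 0.01. Pdia4 (chr6:47796141-47813512) stood at 252, 271 and 228 RPKM in WT of arm 1, 603, 365 and 596 in KO of guide 1, 361, 239 and 263 in WT of arm 2, and 505, 509 and 367 in KO of guide 2. KO and WT libraries did not overlap within either arm, and the difference was 0.85 (SE 0.15, limma adjusted p = 0.0127). It was the most abundant member in naive cells as well as in cultured ones.

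Herpud1 (chr8:94386429-94395371) stood at 61.4, 64.3 and 61.7 RPKM in WT of arm 1, 41.6, 44.9 and 40.3 in KO of guide 1, 56.7, 54.0 and 52.9 in WT of arm 2, and 46.3, 42.1 and 44.9 in KO of guide 2. No KO value of Herpud1 reached the lowest WT value in either arm, and the difference was -0.42 (SE 0.07, limma adjusted p = 0.00918). Txndc5 (chr13:38500266-38528824) stood at 64.9, 52.0 and 73.8 RPKM in WT of arm 1, 55.1, 43.0 and 32.5 in KO of guide 1, 53.5, 63.1 and 63.7 in WT of arm 2, and 37.6, 33.1 and 37.8 in KO of guide 2. Values overlapped in the guide 1 arm and not in the guide 2 arm, and the difference was -0.63 (SE 0.13, limma adjusted p = 0.0266). This call did not hold without KO guide 2 A or B, WT arm 1 A or C, or WT arm 2 B or C, where the limma adjusted p ran from 0.0712 to 0.0818, nor with a replicate block (limma adjusted p = 0.0671) or no trend in the spread (limma adjusted p = 0.0569).

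The disulfide isomerases Pdia4 and Txndc5 thus differed in opposite directions in naive cells, while both rose from activated cells to plasmablasts. Mzb1 was at 76.9 to 118 RPKM in WT and 99.3 to 191 RPKM in KO libraries, and did not pass the threshold (0.60, SE 0.15, limma adjusted p = 0.078). Without KO guide 1 A, the library that listed most genes at 0, the differences of Pdia4, Herpud1 and Txndc5 were 0.79, -0.42 and -0.73, each still called.

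**Figure D5:**
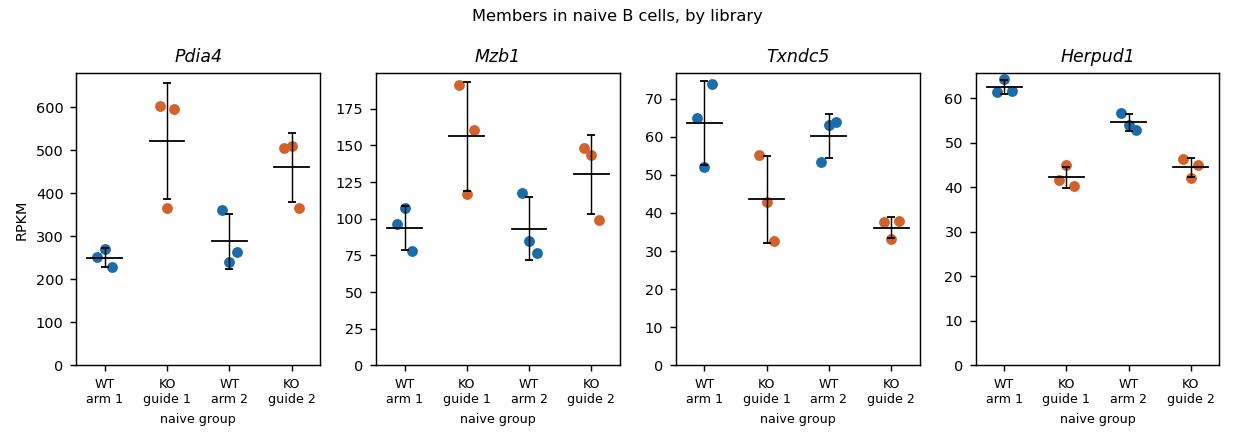
RPKM of Pdia4, Mzb1, Txndc5 and Herpud1 in each naive library (points; WT blue, KO orange), with the mean and SD of the 3 libraries of each group. Pdia4 runs from 228 to 361 in WT and 365 to 603 in KO libraries, and Herpud1 from 52.9 to 64.3 in WT and 40.3 to 46.3 in KO libraries.

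Taken by guide, 2 members were called with guide 1, Pdia4 (1.02, SE 0.21, limma adjusted p = 0.0395) and Herpud1 (-0.55, SE 0.10, limma adjusted p = 0.0259), with 0.592% of all genes called higher and 0.523% lower. Neither was called without WT arm 1 A, B or C, KO guide 1 C or WT arm 2 A, and Pdia4 alone was lost without KO guide 2 A or B or WT arm 2 B or C. Without KO guide 1 A or B, 3 members were called. Both calls were also lost with a replicate block (limma adjusted p = 0.0708 for Pdia4 and 0.0842 for Herpud1) and with no trend in the spread (limma adjusted p = 0.0775 and 0.0689). Pdia4 alone was lost with log2(RPKM + 0.1), with no filter and without both A libraries of the arm (limma adjusted p = 0.0624, 0.0561 and 0.0786). With guide 2 no member was called (4 at an unadjusted p under 0.05), with 0.0197% of all genes called higher and 0.00986% lower. There Txndc5 had the smallest p (-0.71, SE 0.18, limma adjusted p = 0.452), and Pdia4 differed by 0.68 and Herpud1 by -0.29. The difference between the guides was tested and called no member (0 at an unadjusted p under 0.05), and the smallest p among members was that of Ssr2 (0.47, SE 0.22, limma adjusted p = 0.918). With guide 1, KO libraries lay above all WT libraries of the arm in 6 of 56 members (7.68% of all genes) and below in 1, Herpud1 (10% of all genes). With guide 2 they lay above in 4 (7.33% of all genes) and below in 2 (6.44% of all genes), and the 4 counts of 56 lie near or below these shares.

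Summed marginal zone B cell markers also differed between naive KO and WT libraries. The 6 genes of that list, added after the data had been seen, summed to 141 to 361 RPKM in WT and 408 to 789 RPKM in KO libraries. Cr2, S1pr3 and Dtx1 of the list were called higher in KO cells, by 1.16, 2.04 and 1.46 (limma adjusted p = 0.00493, 0.00313 and 0.0107). These genes are named for their calls, and the other genes of the list are not given singly. The 6 measured of 9 plasma cell markers summed to 82.5 to 163 RPKM in WT and 76.7 to 115 RPKM in KO libraries, which overlapped. Sdc1 of that list was called lower, by -1.49 (limma adjusted p = 0.00313). The part of B cell subsets in the differences of Pdia4, Herpud1, Txndc5 and Mzb1 was not tested. Irf8 itself stood at 79.8 to 98.0 RPKM in WT and 47.6 to 77.7 RPKM in KO libraries. Of 106 further pathway genes tested, Erp44, which retrieves disulfide-linked clients from the Golgi, was called, at 41.2 to 50.8 RPKM in WT and 55.1 to 76.7 RPKM in KO libraries (0.46, SE 0.09, limma adjusted p = 0.0214). Erp44 and Kdelr3 are named here because they were the single calls of that list, a choice made after their values were seen.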

How the data were processed

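STAR and the build mm10 are named in the submitters' processing notes; the counting tool and annotation are not given in the sources used here. The authors deposited RPKM values in separate tables for naive and cultured cells. As each table had its own normalization, no test spans both. RPKM keeps no counts, so reads per library were estimated from the steps between low values. limma 3.58.1 under R 4.3.3 fitted log2(RPKM + 1) with a mean for each group, a trend in the spread and two-sided moderated tests. Genes reaching 1 RPKM in 2 or more of the fitted libraries entered (10137 naive, 9861 cultured). P-values were adjusted across these genes with the Benjamini-Hochberg method, and genes under 0.05 were called; adding 1 makes differences of low genes smaller than their ratios. Members and lists were chosen with earlier results of these data known. Named genes are the 2 largest plasmablast differences and the highest level of each step, every member called between KO and WT (or that with the smallest p), Xbp1, Eif2ak3 and the 3 highest and 3 lowest other pathway genes. Coordinates and promoters are from RefSeq (GRCm38.p6). The replicate numbers are not said to mark shared mice. Alternatives were other libraries, a replicate block, pseudocount, filter, scaling and no trend.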

Additional observations from a re-analysis of the deposited data

Results flagged for a closer look

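The library labelled activated WT m3, which entered no comparison because its Thy1 and Irf8 levels went against its label, had a summed RPKM of all 56 members of 11940. This lay above the 6657 and 8372 of activated WT m1 and m2, above the 9197 and 9306 of activated KO m1 and m2, and below the 14710 to 19750 of the plasmablast libraries compared.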

How the results depend on the processing

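The number of members called higher in plasmablasts (54 over the mean, 54 in WT, 52 in KO cells) held within 1.5 times under every alternative run except the use of all 11 cultured libraries as labelled, which gave 4, 0 and 0 (17, 16 and 3 at an unadjusted p under 0.05 by limma); the cause was not tested. Leaving out each library in turn gave 54 to 55, 53 to 55 and 41 to 53. The call of 1 member between KO and WT activated cells became 0 with log2(RPKM + 0.1), no trend in the spread, size factors, the activated m3 libraries as labelled (10 libraries) or all 11 libraries, and 0 to 2 when each library was left out. The difference between genotypes gave 0 to 1. In naive cells with guide 1, the 2 calls became 1 without both A libraries of that arm, with log2(RPKM + 0.1) or with no filter, 0 with no trend or a replicate block, and 0 to 3 when each library was left out. Over both guides the count of 3 stayed between 2 and 4. The labels do not say what a shared replicate number marks. Same-number libraries correlated at r from -0.038 to 0.332 in culture (5 of 6 pairs over 0.1) and different-number ones at -0.332 to 0.038 (0 of 12), which in groups of 2 are the same values with the sign turned. In naive cells 1 of 6 same-number pairs (-0.105 to 0.176) and 1 of 12 others (-0.223 to 0.175) were over 0.1. With a replicate block, 54, 54 and 53 members were called in plasmablasts, and 2 over both naive guides, where Txndc5 was lost (limma adjusted p = 0.0671). No named member changed direction while called. With 2 libraries in each cultured group, small differences are not resolved, and no counts are at hand for intervals.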

Other observations

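Plasmablast KO m3, left out for its 51300 reads, listed Fkbp2 at 0 and had Canx at 25.8 RPKM, against 115 to 128 in the other 4 plasmablast libraries. Ddit3 stood at 32.4 RPKM in it, Trib3 at 36.9 and Atf3 at 22.8, against at most 10.6, 2.11 and 0.693 in the other 4. At this depth such values rest on very few reads per gene, so no difference in these genes can be read from them.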
